A study of Homo sapiens with 12 samples.

Results

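Cal33 is an established human cell line from a squamous carcinoma of the head and neck. Here it was grown as xenograft tumours (CDX) in which TEAD was blocked in 2 ways. The 12 RNA libraries of the series, all of them used here, form 4 groups of 3. In 1 experiment, tumours received SW-682, a small molecule TEAD inhibitor (group smTEADi), or its Vehicle. In the other, doxycycline switched on pTEADi, a genetically encoded peptide inhibitor of TEAD (group pTEADi, DOX+), against a Control group without doxycycline (DOX-). The quantity described is the difference of the 2 effects, that is, pTEADi minus Control, less smTEADi minus Vehicle, on the log2 scale. A positive difference means that a gene stood higher after pTEADi, relative to its own control, than after SW-682. Doxycycline was present in the pTEADi group only, so its own effect and that of the peptide cannot be told apart. The labels give neither dose nor treatment time, do not state the host's strain, sex or age, do not say whether Control tumours carry the same inducible construct, and do not say whether the 3 tumours of a group came from separate animals. P-values therefore measure the spread between these samples.

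TEAD proteins sit on DNA and depend on the co-activators YAP and TAZ, which the Hippo kinases keep out of the nucleus, to turn on genes for growth, matrix and movement. A small molecule and a peptide meet this complex differently: small molecule TEAD inhibitors usually bind the TEAD protein, and peptide inhibitors of this class compete at the surface where YAP and TAZ dock. In squamous epithelium, active YAP and TAZ hold cells in a growing, basal state and restrain the programme of surface differentiation.

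Libraries held 13576494 to 15433679 expected counts, and 14553 to 14891 genes per library had 10 or more. Within a group, pairs of libraries differed by 7.42 to 34.0 times the variance of counting noise (chi-square per degree of freedom), so none repeated another. The squamous identity genes were abundant in every library (14 of 14 markers above 0, a sum of 63040 to 102600 CPM, counts scaled to library size), which is what the Cal33 label describes. Sums for markers of host cell types were below those of the squamous identity genes. Leukocyte markers other than S100A8 and S100A9, which squamous cells also make, summed to 37.9 to 47.5 CPM in Vehicle. Their sum was 36.3 to 55.8 in smTEADi, 49.0 to 76.3 in Control and 34.9 to 41.1 in pTEADi, so that pTEADi lay below Control without overlap. With S100A8 and S100A9 included, the 20 markers went the other way. They summed to 3077 to 6071 CPM in Vehicle, 6107 to 8874 in smTEADi, 3300 to 4981 in Control and 8084 to 8921 in pTEADi. ADGRE1, AIF1, CD163, MRC1, TYROBP and the 3 C1Q genes were at 0 in all 4 groups. Adipocyte markers summed to 58.5 to 165.7 CPM, with LEP, LPL, ADIPOQ and CIDEC at 0 throughout. Fibroblast markers summed to 282.7 to 332 CPM in Vehicle, 244.5 to 286.8 in smTEADi, 324 to 379.5 in Control and 256.3 to 290 in pTEADi. Endothelial markers summed to 28.4 to 46.47 CPM in Vehicle, 46.78 to 70.56 in smTEADi, 33.97 to 39.21 in Control and 49.83 to 62.45 in pTEADi. Reads were aligned to the human genome, so reads of a non-human host may go uncounted. Low sums of these human genes therefore cannot say how much host tissue a tumour held. Whether host reads were removed is not given in the sources used here, and the part of host cells in the results was not tested. The 2 control groups were not alike: Control and Vehicle differed in 5428 of 15460 genes (35.1%), 2706 higher and 2722 lower in Control, by edgeR's quasi-likelihood test at an adjusted p of 0.05, which is the rule for every call below. On the first principal component the Vehicle 2 library (-8.22) lay away from Vehicle 1 and 3 (-35.0 and -42.3) toward the treated side, and smTEADi 1 (58.4) lay beyond smTEADi 2 and 3 (15.5 and 11.6). In bulk tumour RNA, fewer cells of a type and less RNA per cell cannot be told apart.

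Across genes the 2 ways of blocking TEAD moved expression in much the same direction, and the difference itself was called for 2 genes. SW-682 was followed by a rise of 300 genes (2.02% of 14829 tested) and a fall of 516 (3.48%), and pTEADi by a rise of 1866 genes (12.7% of 14705) and a fall of 1998 (13.6%). These shares over all genes are the ones to set beside the counts of genes called in each list below. Because the lists were chosen with earlier results of these data known, such contrasts are a description and no test. Among the 14384 genes tested in both comparisons, which share no library, 727 were called in both with the same sign (5.05%): 257 rose (1.79%) and 470 fell (3.27%). A single gene, CPT1A, was called in both with opposite signs (0.00695%). As a description across genes, which are not independent replicates, the effects had a Pearson correlation of 0.675 and a Spearman correlation of 0.671, and 75.8% of genes had the same sign in both.

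Counts of shared calls depend on how many genes each comparison could call, so the sign and the interval say more. Of the 813 genes called for SW-682 and tested in both, 809 (99.5%) had the same sign after pTEADi, and 89.4% were also called there in that direction. Of the 3821 genes called for pTEADi, 3621 (94.8%) had the same sign after SW-682, but only 19.0% were called there. Of the 3093 genes called for pTEADi and not for SW-682 (1594 rose and 1499 fell), 2894 (93.6%) had the same sign under both. For 2254 of these (72.9%) the 95% confidence interval of the difference lay within 2-fold in either direction, a share near the 67.7% found over all 15460 genes (10467 genes). Among the 727 genes called in both, 543 (74.7%) had such an interval; the pTEADi effect was larger in 362 and the SW-682 effect in 365, a split that being called in both itself shapes. Over the 3821 genes called for pTEADi the median effect was 0.61 with pTEADi and 0.44 in the same direction with SW-682, and over the 813 called for SW-682 it was 0.88 with SW-682 and 0.83 with pTEADi, each set being chosen on one of its 2 effects. The median SE was 0.16 for the SW-682 effect, 0.14 for the pTEADi effect and 0.22 for their difference, all in log2 units. The SW-682 count rested on single libraries. It rose to 1622 when Vehicle 2 was left out and dropped to 335 for smTEADi 1 and 402 for smTEADi 2. Leaving out Vehicle 1, Vehicle 3 or smTEADi 3 gave 0, where edgeR still gave 3079, 2465 and 4123 genes at an unadjusted p under 0.05, against 4128 with all 6 libraries; DESeq2 called 1893 genes on all 6. The shared count moved with it, from 0 in the same 3 fits to 1331 without Vehicle 2, with 314 without smTEADi 1 and 372 without smTEADi 2. The pTEADi count ranged from 2325 without pTEADi 2 to 4379 without Control 3, with 2573 without Control 1.

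**Figure D1:**
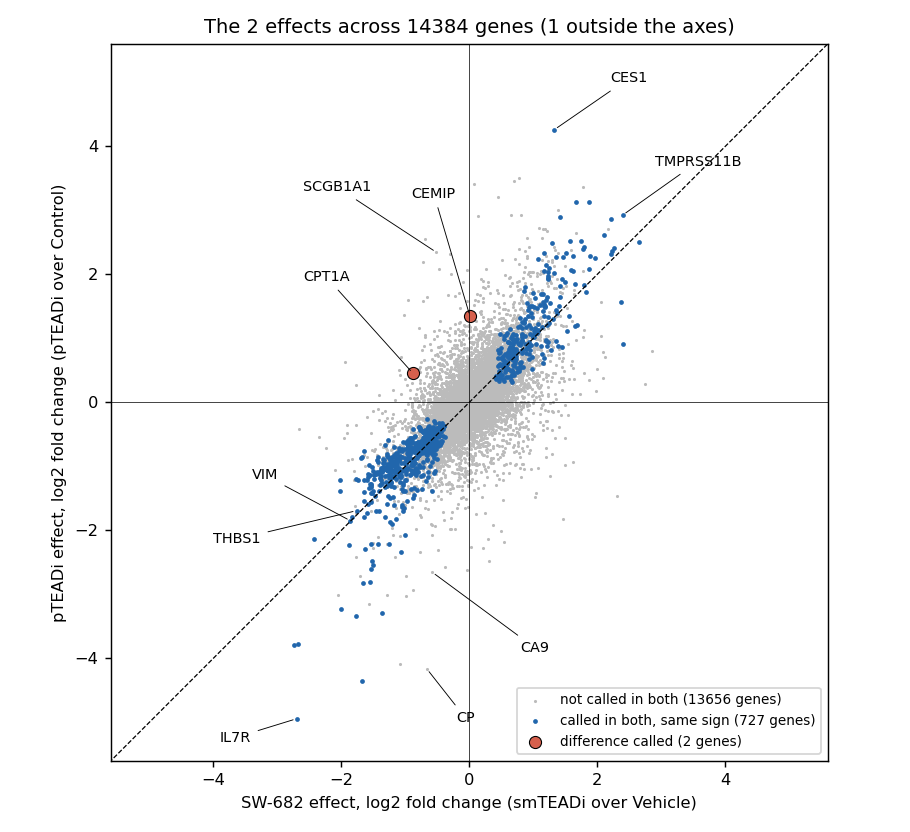
Each point is 1 of 14384 genes, with the SW-682 effect on the x axis and the pTEADi effect on the y axis, both as log2 fold changes against their own control. Blue points are the 727 genes called in both with the same sign, which lie along the dashed line of equal effects, and the red points, CPT1A and CEMIP, lie off it; 1 gene falls outside the axes.

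The test of the difference itself, 2-sided over 15460 genes, called 2 genes, both higher with pTEADi (0.0129%), and 0 lower (0%). At an unadjusted p under 0.05 there were 1103 genes (7.13%), 580 higher (3.75%) and 523 lower (3.38%). These shares, and the 67.7% of intervals within 2-fold, are the ones to set beside such counts in the lists below. DESeq2 called 43 genes on the same data, 26 higher and 17 lower. Of the 1036 genes at an unadjusted p under 0.05 that were tested in all 3 fits, 576 had effects of opposite sign, 395 had the same sign with a larger pTEADi effect, and 65 had the same sign with a larger SW-682 effect.

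CPT1A, the enzyme that loads long-chain fatty acids for entry into mitochondria, moved in opposite directions (ENSG00000110090, chr11:68754620-68844410, minus strand, GRCh38). Its level was 26.1, 23.9 and 26.6 CPM in Vehicle, 14, 12.2 and 15.4 in smTEADi, 14.4, 18.2 and 14.5 in Control and 20.04, 21.8 and 22.9 in pTEADi. Both treated groups lay clear of their own controls, below Vehicle after SW-682 and above Control after pTEADi. CPT1A fell by 0.88 ± 0.13 (SE) with SW-682 (adjusted p = 0.0365) and rose by 0.46 ± 0.13 with pTEADi (adjusted p = 0.0224). The difference was 1.34 ± 0.18, with a 95% interval of 0.95 to 1.73 (edgeR adjusted p = 0.0451). The starting levels also differed, Control minus Vehicle being -0.70 in log2 (adjusted p = 0.00133), and the pTEADi tumours ended between Control and Vehicle.

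CEMIP, which takes part in the breakdown of hyaluronan, was the other gene called for the difference (ENSG00000103888, chr15:80779343-80951776, plus strand, GRCh38). Its level was 12.7, 15.2 and 14.8 CPM in Vehicle, 17.2, 13.4 and 12.4 in smTEADi, 12.8, 15.2 and 14.4 in Control and 33.99, 36.04 and 37.6 in pTEADi. The 3 pTEADi libraries lay above the 9 others, which overlapped. CEMIP rose by 1.34 ± 0.11 with pTEADi (adjusted p = 2.5e-05), while its SW-682 effect was 0.012 ± 0.16 (adjusted p = 0.968). The difference was 1.33 ± 0.19, with an interval of 0.93 to 1.74 (edgeR adjusted p = 0.0451), and Control minus Vehicle was -0.009 in log2.

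Both calls stood close to the threshold. With each of the 12 libraries left out in turn, the CPT1A difference ranged from 1.26 to 1.46 and the CEMIP difference from 1.25 to 1.48. CPT1A stayed past the threshold without Vehicle 2, smTEADi 1, smTEADi 3 or Control 2, and CEMIP without smTEADi 1 or smTEADi 3; without any other single library edgeR's adjusted p for CPT1A was 0.0699 (Vehicle 1), 0.0935 (Vehicle 3), 0.154 (smTEADi 2), 0.168 (Control 1), 0.0813 (Control 3), 0.114 (pTEADi 1), 0.173 (pTEADi 2) and 0.172 (pTEADi 3). For CEMIP these were 0.0699, 0.0935, 0.154, 0.168, 0.0813, 0.117, 0.173 and 0.172, and 0.0866 without Vehicle 2 and 0.0824 without Control 2.

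The 8 further genes with the smallest unadjusted p for a higher difference did not pass the threshold and are given as values. CES1, a carboxylesterase, was at 2.88, 6.48 and 3.91 CPM in Vehicle, 12.8, 7.56 and 13.1 in smTEADi, 0.768, 1.58 and 2.44 in Control and 27.4, 34.7 and 30.5 in pTEADi. Every pTEADi library exceeded every other library, and the smTEADi libraries also exceeded the Vehicle libraries. CES1 rose in both comparisons, by 1.33 ± 0.31 with SW-682 and 4.26 ± 0.26 with pTEADi, and the difference was 2.94 ± 0.47 (edgeR adjusted p = 0.0815). SCGB1A1, secretoglobin of airway club cells, was at 69.1, 17.9 and 65.4 CPM in Vehicle, 36.5, 29.8 and 40.5 in smTEADi, 14.5, 14.9 and 15.4 in Control and 70.5, 77.2 and 80.9 in pTEADi. Here the pTEADi libraries lay above Control by 2.35 ± 0.098, while Vehicle 2 was far below Vehicle 1 and 3, and the smTEADi libraries fell between them (SW-682 effect -0.51 ± 0.40, adjusted p = 0.426). Its difference of 2.86 ± 0.47 missed the threshold with all libraries (edgeR adjusted p = 0.088) and passed it without Vehicle 2, at 3.27, and without smTEADi 3, at 2.97.

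NANOS1, an RNA-binding repressor of translation, was at 10.8, 15.98 and 11.8 CPM in Vehicle, 10.9, 14.4 and 13.2 in smTEADi, 11.9, 10.8 and 13.00 in Control and 33.5, 28.1 and 28.5 in pTEADi, again with all pTEADi libraries above the rest. NSG1 was at 45.9, 50.3 and 39.6 CPM in Vehicle, 55.9, 59.4 and 62.2 in smTEADi, 26.1, 19.5 and 26.5 in Control and 58.2, 62.2 and 62.7 in pTEADi: the treated groups ended at a like level, and Control began lower than Vehicle (-0.91, adjusted p = 0.000423). RHOV, an atypical small GTPase, rose with pTEADi by 1.0 ± 0.086 and had an SW-682 effect of 0.37 ± 0.093 (adjusted p = 0.0514). AKR1B10, an aldo-keto reductase, differed by 1.14 ± 0.24, CFD, complement factor D, by 1.08 ± 0.20, and PCDHGB2, a protocadherin, by 1.42 ± 0.30. CFD is also an adipocyte marker, and the 10 adipocyte markers summed to 71.4 to 94.0 CPM in Vehicle, 155.9 to 165.7 in smTEADi, 58.5 to 67.2 in Control and 104 to 111 in pTEADi, so their sum was higher in both treated groups; their part in the CFD result was not tested.

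The 10 genes with the smallest p for a lower difference likewise did not pass. RRAD, a small GTPase that restrains calcium channels, was at 47.9, 65.5 and 71.7 CPM in Vehicle, 75.9, 60.5 and 58.2 in smTEADi, 67.96, 91.01 and 70.98 in Control and 32.7, 30.03 and 26.6 in pTEADi, and the 3 pTEADi libraries lay below the 9 others. Its SW-682 effect was 0.072 ± 0.16, it fell with pTEADi (log2 change -1.37 ± 0.13), and the difference was -1.44 ± 0.22 (edgeR adjusted p = 0.0815). CP, ceruloplasmin, the copper-carrying ferroxidase, was at 7.96, 2.60 and 7.82 CPM in Vehicle, 5.38, 4.67 and 1.56 in smTEADi, 10.8, 11.1 and 7.13 in Control and 0.904, 0.434 and 0.277 in pTEADi, all pTEADi libraries being lowest. It fell with pTEADi (log2 change -4.16 ± 0.35, adjusted p = 2.52e-05); Vehicle 2 and smTEADi 3 were the low libraries of their groups, the SW-682 effect was -0.66 ± 0.49, and the difference was -3.498 ± 0.73 (edgeR adjusted p = 0.286).

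AK4, a mitochondrial adenylate kinase, GALNT3, which starts mucin-type glycosylation, and SORD, sorbitol dehydrogenase, showed a tighter pattern. AK4 was at 107, 104 and 106 CPM in Vehicle, 109.6, 105 and 85.95 in smTEADi, 83.4, 92.4 and 88.9 in Control and 48.00, 50.4 and 55.1 in pTEADi: the SW-682 effect was -0.077 ± 0.11, and pTEADi lay below Control (log2 change -0.79 ± 0.09). GALNT3 had an SW-682 effect of 0.013 ± 0.11 and a pTEADi effect of -0.69 ± 0.096, and SORD had 0.041 ± 0.089 and -0.52 ± 0.093. JPH2, a junctophilin, differed by -1.49 ± 0.32 and JADE2, an E3 ligase scaffold, by -0.59 ± 0.13. DDIT4 and CA9, also among the 10, are described with the hypoxia genes. All 20 genes of these lists were called for pTEADi, and 2 of them, CPT1A and CES1, for SW-682. In 12 of the 20, Control and Vehicle themselves differed, in 11 of these with a sign opposite to the difference of effects; since the control libraries enter both quantities, that split is no independent result.

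**Figure D2:**
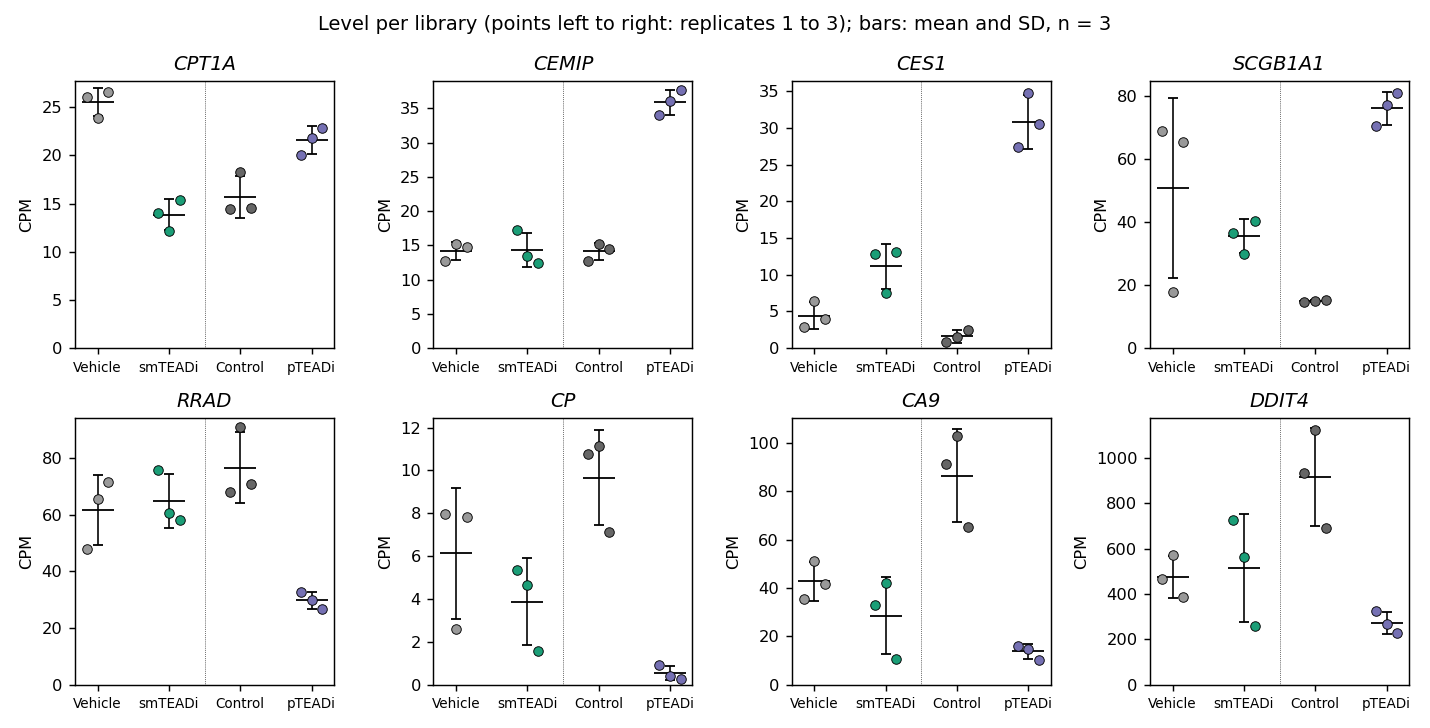
Level in CPM (linear axis from 0) of 8 genes in the 12 libraries, with the mean and SD of each group (n = 3). The pTEADi libraries stand above all others for CEMIP and CES1 and below all others for RRAD and CP, whereas for CPT1A the 2 treated groups move in opposite directions from their controls; for CA9 and DDIT4 the smTEADi 3 library lies at the pTEADi level.

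Among genes called in both comparisons with a difference interval within 2-fold, the 8 leading falls include matrix, cytoskeleton and growth-factor genes. IL7R and FGF2, described below, fell further in both but did not meet the interval rule. THBS1, the matrix protein thrombospondin 1, was at 733, 786 and 968 CPM in Vehicle, 131, 320.1 and 283 in smTEADi, 1129, 1358 and 948 in Control and 447, 267 and 350.4 in pTEADi. Each treated library was below each of its controls. The log2 change was -1.76 ± 0.29 with SW-682 and -1.69 ± 0.18 with pTEADi, and the difference of 0.07 ± 0.38 had an interval of -0.73 to 0.87. CCN1, a secreted matrix signal and a standard YAP/TAZ target, was at 40.02, 33.4 and 34.3 CPM in Vehicle, 8.55, 15.4 and 13.3 in smTEADi, 63.4, 81.2 and 46.6 in Control and 30.8, 17.3 and 23.4 in pTEADi, with changes of -1.52 ± 0.20 and -1.42 ± 0.21 and a difference interval of -0.61 to 0.82. VIM, the intermediate filament of mesenchymal cells, changed by -1.86 ± 0.29 and -1.85 ± 0.26, and COTL1, an actin-binding protein, by -1.47 ± 0.21 and -1.47 ± 0.21. NRG1, a ligand of ERBB receptors, changed by -1.54 ± 0.26 and -1.56 ± 0.15, DKK1, a secreted Wnt antagonist, by -1.58 ± 0.32 and -1.59 ± 0.19, KRT75, a keratin, by -1.84 ± 0.38 and -1.79 ± 0.11, and CREB5, a transcription factor, by -1.64 ± 0.32 and -1.79 ± 0.19. All 8 fell in both comparisons.

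Under the same interval rule, the 8 leading genes that rose in both include genes of the surface layers of squamous epithelium. SCEL, sciellin of the cornified envelope, was at 202, 305 and 174 CPM in Vehicle, 801, 496 and 446 in smTEADi, 102, 129 and 112 in Control and 252, 329 and 358 in pTEADi. It changed by 1.36 ± 0.26 with SW-682 and 1.45 ± 0.13 with pTEADi, and Control lay below Vehicle (-0.99), so that pTEADi levels overlapped Vehicle levels. CST6, a cystatin of differentiating keratinocytes, changed by 1.17 ± 0.23 and 1.35 ± 0.12, MAB21L4 by 1.18 ± 0.18 and 1.49 ± 0.12, and BNIPL by 1.08 ± 0.23 and 1.23 ± 0.12. ACP3, SYT15, ZNF117 and RAB11FIP1 rose by 1.08 to 1.23 with SW-682 and by 1.12 to 1.33 with pTEADi. The difference intervals of these 16 genes all lay within 2-fold, because the rule that chose them required it.

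**Figure D3:**
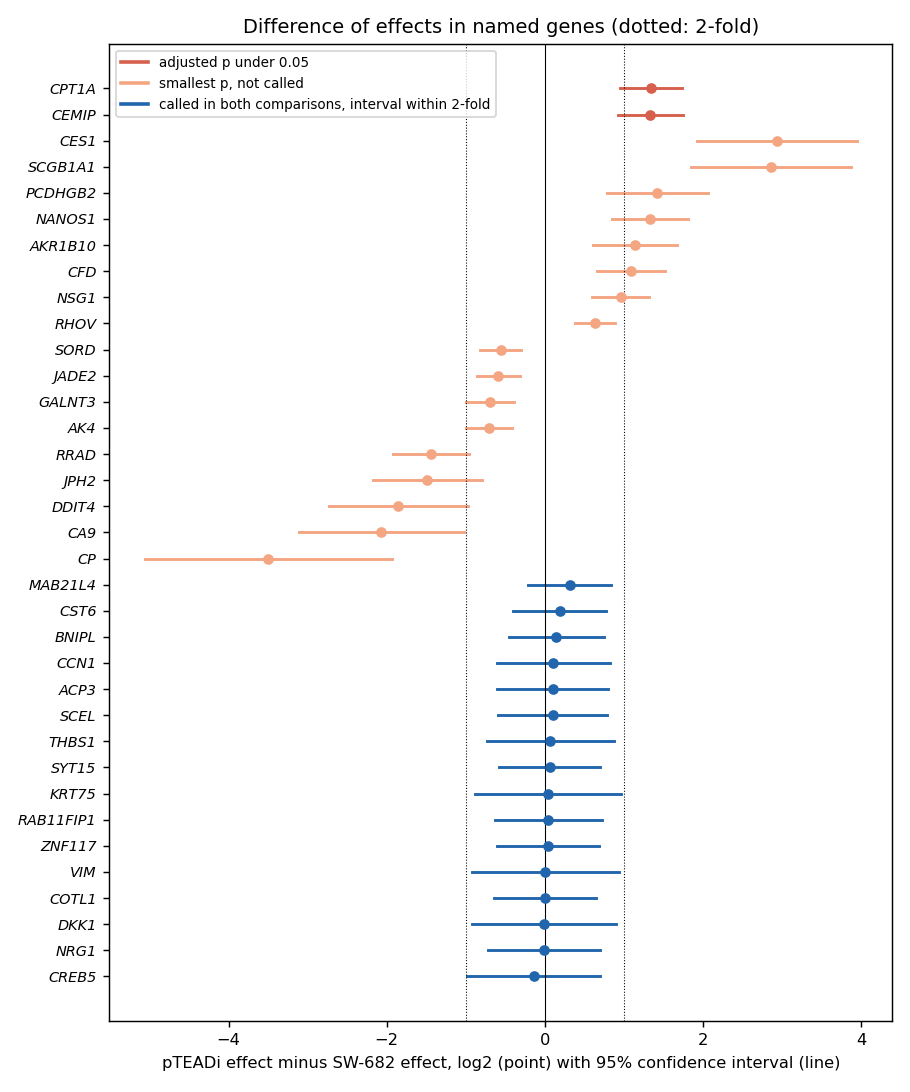
Difference of effects (pTEADi minus SW-682, log2) with its 95% confidence interval for the 2 called genes (red), genes next in order of p (orange, not called) and the 16 leading genes called in both comparisons with an interval within 2-fold (blue). Dotted lines mark 2-fold; the orange intervals exclude 0 by selection, and the blue ones centre near it.

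Promoter sequences are shown for 1 gene that fell in both comparisons (THBS1) and for 1 that fell with pTEADi and whose difference was not called (CA9, edgeR adjusted p = 0.335), to place the 2 binding motifs the comparison touches. They are the 250 bases before the gene's start in RefSeq (GRCh38.p14), and capitals mark the motif on either strand.
THBS1 (chr15:39580829-39581078, plus strand, TEAD core): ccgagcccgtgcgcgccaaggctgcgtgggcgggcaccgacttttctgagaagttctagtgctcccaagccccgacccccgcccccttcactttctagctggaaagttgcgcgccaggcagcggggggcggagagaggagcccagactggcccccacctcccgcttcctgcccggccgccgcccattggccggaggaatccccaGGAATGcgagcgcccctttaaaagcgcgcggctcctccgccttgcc
CA9 (chr9:35673678-35673927, plus strand, hypoxia response element core): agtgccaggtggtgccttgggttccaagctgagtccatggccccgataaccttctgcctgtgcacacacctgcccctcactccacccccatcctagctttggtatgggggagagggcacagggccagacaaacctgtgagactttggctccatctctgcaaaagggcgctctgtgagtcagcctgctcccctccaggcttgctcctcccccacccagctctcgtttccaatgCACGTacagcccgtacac
The TEAD core searched was GGAATG, which starts at position -46 in THBS1. The hypoxia response element core searched was ACGTG, whose reverse complement CACGT starts at position -18 in CA9; the 2 readings overlap where CACGTG occurs. The TEAD core was in 14.3% of the 27305 promoters of that table and in 13.1% of those of tested genes (1467 of 11159). It was in 15.8% of the genes that fell in both comparisons (58 of 366 with a promoter), in 18.2% of those that rose in both (34 of 187), and in 8 of the 16 YAP/TAZ target genes with a promoter. The hypoxia core was in 28.3% of tested genes' promoters and in 12 of 19 hypoxia-list promoters (63.2%). Among genes with an unadjusted p under 0.05 for the difference, the TEAD core was in 47 of 358 lower (13.1%) and 57 of 408 higher, and the hypoxia core in 27.7% and 28.2%, all near the shares of tested genes. Promoters of CPT1A and CEMIP held no TEAD core in this window. A match is a string of letters and says nothing about binding in these tumours.

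A part of the YAP/TAZ target genes fell in each comparison, and none rose. Of 22 in the list, 21 were tested for the difference. With SW-682, 6 of 20 fell and 0 rose, and with pTEADi 14 of 21 fell and 0 rose; the median effects were -0.27 and -0.58, against 0.011 and -0.00067 over all genes. The 6 genes called in both were CCN1, NT5E, DOCK5, FOXF2, CRIM1 and TGFB2, of which DOCK5, FOXF2 and CRIM1 are named after their values were seen. The median difference was -0.24 (all genes 0.011), with 15 of 21 negative, 1 higher and 3 lower at an unadjusted p under 0.05, and 12 intervals within 2-fold. Of all genes, 3.75% were higher and 3.38% lower at that p, and 67.7% had such an interval. The list's median difference was -0.073 without Control 2 and -0.037 without smTEADi 2.

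F3, tissue factor, which starts coagulation, was at 227, 276 and 249 CPM in Vehicle, 314, 250.1 and 127 in smTEADi, 287, 419 and 212 in Control and 109.8, 115 and 131 in pTEADi. It fell with pTEADi (-1.37 ± 0.19) and had an SW-682 effect of -0.12 ± 0.27, smTEADi 3 being the low library of its group, and the difference was -1.25 ± 0.38 (unadjusted p = 0.00552, not called). CCDC80, a matrix protein, differed by -1.58 ± 0.50 and LATS2, a Hippo kinase that YAP itself induces, by -0.45 ± 0.19, whereas TGFB2 differed by 0.69 ± 0.30, having fallen more with SW-682. The ecto-enzyme NT5E fell in both (-1.88 ± 0.37 and -2.23 ± 0.32), and AMOTL2, a YAP-binding scaffold, had effects of -0.26 ± 0.094 and -0.50 ± 0.10. CCN2 was nearly silent, with 0 to 9 counts per library in the SW-682 experiment and 2 to 31 in the pTEADi experiment, and ANKRD1 had 0 to 2 counts in all.

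The TEAD, YAP and TAZ genes were measured at the RNA level only. TEAD4 fell in both comparisons (-1.09 ± 0.25 and -0.71 ± 0.17), and TEAD2 fell with pTEADi (-0.36 ± 0.11) at an SW-682 effect of -0.35 ± 0.11. TEAD1 and TEAD3 were called in neither. YAP1 was at 173, 176 and 168 CPM in Vehicle, 243, 198 and 190.2 in smTEADi, 119, 124 and 132 in Control and 101, 128 and 128 in pTEADi: its SW-682 effect was 0.29 ± 0.11, its pTEADi effect -0.072 ± 0.10 and its difference -0.36 ± 0.16 (unadjusted p = 0.039). WWTR1, the gene of TAZ, fell with pTEADi (-0.57 ± 0.099) and differed by -0.45 ± 0.20. Among the Hippo scaffold and kinase genes, SAV1 differed by -0.66 ± 0.17 and TAOK3 by -0.56 ± 0.19. In the whole list of 23 tested genes, 19 intervals lay within 2-fold and 4 were lower at an unadjusted p under 0.05. Of all genes, 67.7% had such an interval and 3.38% were lower at that p.

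Most proliferation genes fell with pTEADi, and many of them with SW-682. Of 54 G2/M genes, 41 fell with SW-682 and 48 with pTEADi, 40 in both, with median effects of -1.17 and -0.97. The median difference was 0.12, 47 intervals lay within 2-fold, and 1 gene was higher and 1 lower at an unadjusted p under 0.05. Over all genes these shares were 67.7%, 3.75% and 3.38%. MKI67, the proliferation marker Ki-67, was at 179.5, 136 and 208 CPM in Vehicle, 41.7, 87.98 and 78.1 in smTEADi, 231, 214 and 203 in Control and 117, 94.5 and 124 in pTEADi, a change of -1.33 ± 0.26 with SW-682 and -0.95 ± 0.11 with pTEADi. LBR, a nuclear envelope receptor, was the exception with a lower difference (-0.69 ± 0.20), and CBX5, the heterochromatin protein HP1 alpha, the one with a higher (0.41 ± 0.17). Of 43 S phase genes, 19 fell with SW-682 and 34 with pTEADi, 19 in both, although the median effect was larger with SW-682 (-0.94) than with pTEADi (-0.72). The median difference was 0.19, with 36 of 43 positive and 0 genes at an unadjusted p under 0.05. RRM2, the ribonucleotide reductase subunit of dividing cells, fell in both (-1.56 ± 0.30 and -0.98 ± 0.096). The G2/M median became -0.067 and the S phase median -0.031 without smTEADi 1, the library with the lowest level of both lists. Of 28 growth genes of MYC and ribosome biogenesis, 3 fell with SW-682 and 22 with pTEADi; the median was -0.46 in both comparisons, and 28 of 28 intervals lay within 2-fold. MYC itself fell with pTEADi (-0.72 ± 0.13), had an SW-682 effect of -0.22 ± 0.10 and differed by -0.50 ± 0.18.

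Of 18 cell cycle brakes, 3 rose and 0 fell with SW-682, and 5 rose and 1 fell with pTEADi. The difference was negative in 12 of 18, with a median of -0.18. At an unadjusted p under 0.05, 2 were higher and 2 lower, against 3.75% and 3.38% of all genes. The median was -0.078 without Vehicle 3, -0.057 without smTEADi 1 and -0.27 without smTEADi 3. CDKN1A, the inhibitor p21, rose in both (0.62 ± 0.15 and 0.83 ± 0.10). BTG2, an antiproliferative gene, was at 45.9, 53.9 and 38.3 CPM in Vehicle, 45.2, 50.8 and 55.98 in smTEADi, 36.1, 24.6 and 41.5 in Control and 76.3, 71.7 and 67.8 in pTEADi; it rose with pTEADi (1.08 ± 0.15) and its SW-682 effect was 0.14 ± 0.14, a difference of 0.94 ± 0.23 (unadjusted p = 0.00118). TXNIP, which restrains glucose uptake, rose in both and differed by 0.72 ± 0.27. On the lower side, KLF6, a growth-restraining transcription factor, differed by -0.67 ± 0.20 (unadjusted p = 0.00537) and FOXO1, a transcription factor held in check by insulin signalling, by -0.32 ± 0.14 (unadjusted p = 0.0371). CCND1, cyclin D1, rose with pTEADi (0.44 ± 0.093) and had an SW-682 effect of -0.078 ± 0.17. EGFR had the same effect of -0.23 in both, called in neither, and a difference interval of -0.29 to 0.29.

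Most interferon-stimulated genes fell in both comparisons, and the pTEADi median was the lower. Of 37 tested, 24 fell with SW-682 and 34 with pTEADi, 24 in both and 0 rose in either, with medians of -0.98 and -1.29. The median difference was -0.37, with 31 of 37 negative, and 12 genes were lower at an unadjusted p under 0.05, 32.4% of the list against 3.38% of all genes; 7 were lower without Vehicle 2 or smTEADi 2, 8 without smTEADi 3, Control 2, pTEADi 1 or pTEADi 2, and 20 without smTEADi 1. The list was chosen with earlier results of these data known, so its share is a description and no test. The leukocyte marker sum without S100A8 and S100A9 was also lower in pTEADi than in Control, and with them it was higher. The part of either sum in the result was not tested. RSAD2, the antiviral enzyme viperin, was at 25.4, 14.9 and 24.6 CPM in Vehicle, 3.76, 9.01 and 7.46 in smTEADi, 24.9, 54.9 and 13.9 in Control and 1.21, 0.868 and 2.43 in pTEADi. It changed by -1.68 ± 0.31 with SW-682 and -4.36 ± 0.51 with pTEADi, every treated library being below every one of its controls. ISG15, a ubiquitin-like modifier, was at 136, 112 and 157 CPM in Vehicle, 27.8, 57.9 and 53.7 in smTEADi, 312, 459.6 and 226 in Control and 64.05, 49.1 and 50.3 in pTEADi, with changes of -1.54 ± 0.25 and -2.61 ± 0.22; treated levels overlapped, and Control was higher than Vehicle by 1.302. In the list as a whole, Control was above Vehicle by the test in 3 of 37 genes and below in 11 (median -0.21). IFIT3 differed by -1.26 ± 0.37, and MX2, a viral restriction factor, by -0.56 ± 0.15. The antigen presentation genes had 14 of 16 intervals within 2-fold and a median difference of -0.072.

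Many hypoxia genes fell with pTEADi, while SW-682 had no uniform effect on them. These genes are switched on by HIF when oxygen is short, and they serve glucose use, pH control and vessel growth. Of 24 tested, 16 fell with pTEADi and 1 fell with SW-682 (PLOD2, named after its value was seen), and 0 rose in either. The median effects were -0.91 with pTEADi and 0.11 with SW-682. The difference was negative in 23 of 24, with a median of -0.83, and 15 were lower at an unadjusted p under 0.05 (62.5%, against 3.38% of all genes), though none was called at the adjusted threshold. That count was 11 to 18, and the median -1.08 to -0.65, when single libraries were left out. Since the list was chosen with earlier results of these data known, its share is a description and no test. The mean log2 CPM over the list was 6.46, 6.76 and 6.47 in Vehicle, 7.03, 6.80 and 5.88 in smTEADi, 6.77, 6.91 and 6.41 in Control, and 5.90, 5.92 and 5.89 in pTEADi. The 3 pTEADi libraries agreed closely and lay below all Control libraries, whereas smTEADi 3 lay at the pTEADi level and smTEADi 1 and 2 above the highest Vehicle library.

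CA9, carbonic anhydrase IX, whose promoter is printed above, was at 35.4, 51.3 and 41.4 CPM in Vehicle, 32.9, 41.9 and 10.8 in smTEADi, 91.1, 103 and 65.2 in Control and 15.98, 14.9 and 10.4 in pTEADi. It fell with pTEADi (log2 change -2.65 ± 0.18), its SW-682 effect was -0.58 ± 0.38, and its difference was -2.07 ± 0.49 (edgeR adjusted p = 0.335). DDIT4, an inhibitor of mTOR signalling, was at 468, 572 and 389 CPM in Vehicle, 725, 562 and 257 in smTEADi, 935, 1122 and 689 in Control and 324, 269.7 and 227 in pTEADi, and its difference was -1.85 ± 0.41. VEGFA, the vessel growth factor, was at 149.5, 208 and 181 CPM in Vehicle, 421, 239.8 and 116 in smTEADi, 232, 365 and 174 in Control and 107, 124 and 102 in pTEADi: smTEADi ranged from below to above Vehicle, and pTEADi fell (-1.22 ± 0.21). P4HA1, a collagen prolyl hydroxylase, differed by -1.07 ± 0.28. Without smTEADi 3, edgeR called 20 genes for the difference, 5 higher and 15 lower, among them CA9, DDIT4, P4HA1, VEGFA, ENO2, RRAD, AK4, JPH2 and CP on the lower side, and CES1 and SCGB1A1 with CPT1A and CEMIP on the higher.

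Glycolysis genes in part answer to hypoxia. Control was above Vehicle by the test in 8 of the 18 genes and below in 0 (median 0.38). Of 18, 12 fell with pTEADi and 0 with SW-682 (0 rose in either), the median difference was -0.37, and 6 were lower at an unadjusted p under 0.05, against 3.38% of all genes. That count was 2 without Vehicle 1, smTEADi 1, smTEADi 2, Control 1 or Control 2, 3 without Vehicle 3 or pTEADi 2, and 10 without smTEADi 3; the median was -0.24 without smTEADi 1 and -0.23 without Control 2. ENO2, an enolase, was at 26.98, 31.4 and 26.4 CPM in Vehicle, 47.5, 31.3 and 7.60 in smTEADi, 49.8, 53.3 and 28.7 in Control and 9.87, 10.3 and 7.42 in pTEADi, with smTEADi 3 again at the pTEADi level, and differed by -2.28 ± 0.61; HK2, a hexokinase, differed by -1.53 ± 0.52. Nuclear-encoded oxidative phosphorylation genes did not part to that extent: 34 of 34 intervals lay within 2-fold, with a median difference of 0.14.

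Stress-response genes under ATF4, which answers to amino acid shortage, fell in larger number with pTEADi, and none was called for the difference. Of 23 tested for the difference, 15 fell and 2 rose with pTEADi, while 2 of 22 fell and 2 rose with SW-682. The median difference was -0.44, and 9 were lower at an unadjusted p under 0.05, against 3.38% of all genes. That count was 5 without Control 2 or pTEADi 2. STC2, a stanniocalcin, was at 2.40, 4.51 and 3.22 CPM in Vehicle, 6.26, 3.02 and 2.49 in smTEADi, 5.73, 19.3 and 11.4 in Control and 3.47, 2.24 and 1.80 in pTEADi; the pTEADi and Vehicle libraries overlapped, and Control minus Vehicle was 1.84. CHAC1, a glutathione-degrading enzyme, differed by -1.296 ± 0.37 and TRIB3, a pseudokinase, by -0.92 ± 0.32. Control and Vehicle differed in 14 of the 23 genes, 13 of them higher in Control. Chaperones of the endoplasmic reticulum, by contrast, had 22 of 22 intervals within 2-fold and a median difference of -0.015.

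NF-kB cytokines and chemokines had a median difference of -1.51, and Control exceeded Vehicle in 8 of the 10 tested genes. Of 21 genes, 10 were tested; 9 of these fell with pTEADi and 2 of 9 with SW-682. All 10 differences were negative, 8 at an unadjusted p under 0.05, none was called, and 0 intervals lay within 2-fold. IL1B, the cytokine interleukin 1 beta, was at 6.25, 4.58 and 5.76 CPM in Vehicle, 2.80, 3.42 and 2.13 in smTEADi, 16.97, 37.6 and 10.6 in Control and 4.07, 1.88 and 2.08 in pTEADi. The Control libraries were spread over a wide range, with Control 2 highest, and all lay above the other 3 groups. It fell with pTEADi (-3.02 ± 0.44), and its SW-682 effect was -0.98 ± 0.25 (adjusted p = 0.0525). TNFAIP3, a brake on NF-kB, was at 30, 38.4 and 34.02 CPM in Vehicle, 34.05, 26.4 and 24.6 in smTEADi, 42.1, 108 and 34.9 in Control and 20.8, 18.2 and 17.7 in pTEADi, Control 2 again being highest, and IL1A differed by -1.75 ± 0.55. Without Control 2 the list's median difference was -0.88, with 4 of 10 lower at an unadjusted p under 0.05. The leukocyte marker sum without S100A8 and S100A9 was likewise lower in pTEADi than in Control, and with them it was higher. The part of either sum in these values was not tested.

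Immediate-early genes leaned the same way, with 18 of 22 differences negative and a median of -0.36, which was -0.15 without smTEADi 1, -0.19 without Control 2 and -0.56 without smTEADi 3; none was called. IER3, a survival gene, was at 43.04, 70.9 and 43.6 CPM in Vehicle, 89.7, 68.6 and 28.1 in smTEADi, 88.3, 128 and 71.5 in Control and 33.3, 26.5 and 27.5 in pTEADi and differed by -1.96 ± 0.47 (unadjusted p = 0.000865), FOSL2 by -0.75 ± 0.24 and FOS by -1.36 ± 0.47. Of the MAPK output genes, 16 of 22 were negative, with a median of -0.28 that became -0.067 without Control 2. At an unadjusted p under 0.05, 3 were higher and 3 lower, against 3.75% and 3.38% of all genes. EPHA4 differed by 0.49 ± 0.15 and SPRED2, a brake on RAS signalling, by -0.53 ± 0.19.

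**Figure D4:**
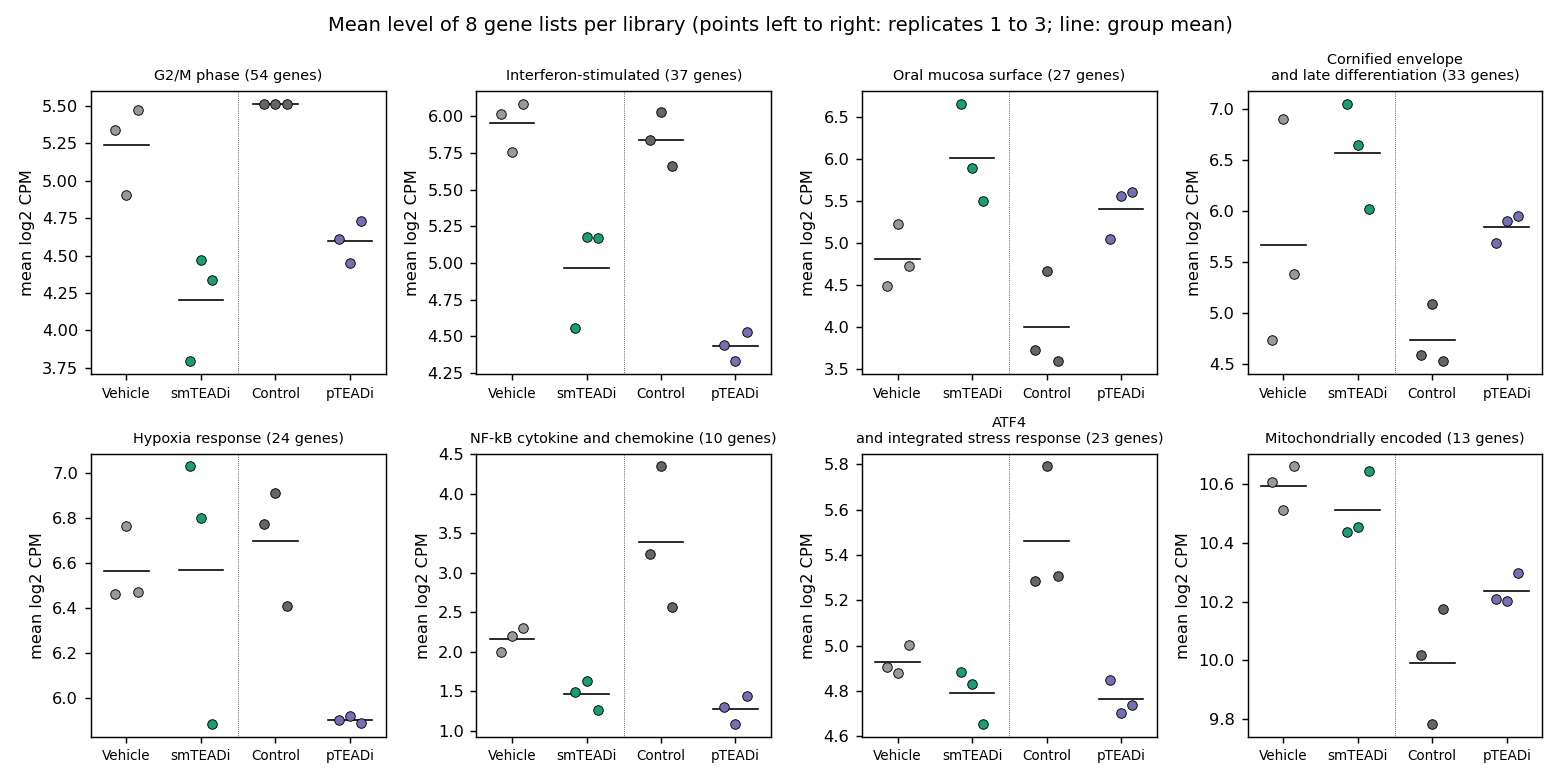
Mean log2 CPM of 8 gene lists in each library (points) with group means (lines), on axes that do not start at 0. For G2/M and interferon genes both treated groups lie below their controls, for hypoxia genes the pTEADi libraries lie together at 5.89 to 5.92 while smTEADi libraries spread from 5.88 to 7.03, and for NF-kB genes Control 2 stands highest.

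Transcripts of the mitochondrial genome leaned higher with pTEADi relative to SW-682. Of 13, 6 rose with pTEADi and 0 fell, and 0 of 13 were called with SW-682. The median difference was 0.33, 11 of 13 were positive, and 7 were higher at an unadjusted p under 0.05 against 3.75% of all genes (4 without pTEADi 1 or pTEADi 3, 11 without Control 3), yet all 13 intervals lay within 2-fold. MT-CYB, cytochrome b of complex III, was at 3533, 3386 and 3604 CPM in Vehicle, 3475, 3295 and 3976 in smTEADi, 2266, 1997 and 2691 in Control and 3487, 3489 and 3743 in pTEADi; Control was the low group, and the 3 others overlapped. Its difference was 0.59 ± 0.17, MT-CO3 differed by 0.54 ± 0.16 and MT-ND6 by 0.51 ± 0.18. In 11 of the 13 genes Control was below Vehicle by the test. The mitochondrial ribosome, encoded in the nucleus, had 24 of 24 intervals within 2-fold and a median difference of 0.010.

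Cytosolic heat shock genes also leaned toward pTEADi, with 15 of 16 differences positive, a median of 0.31 and 5 higher at an unadjusted p under 0.05 against 3.75% of all genes (3 without Vehicle 3, Control 2 or pTEADi 1, 9 without Control 3). HSPA1A, the inducible HSP70, was at 209, 184 and 230.2 CPM in Vehicle, 181, 176 and 207 in smTEADi, 309, 305 and 430.5 in Control and 519, 551 and 408 in pTEADi; it rose with pTEADi (0.50 ± 0.15) and had an SW-682 effect of -0.15 ± 0.12. It has a near-identical copy, HSPA1B, so the split of reads between the 2 is uncertain. HSPA8, the constitutive form, differed by 0.66 ± 0.21.

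Detoxification and secretory genes held several of the higher differences. Of 24 NRF2 targets, 8 rose and 5 fell with pTEADi and 0 were called with SW-682. Over all genes, 12.7% rose and 13.6% fell with pTEADi, and 2.02% rose and 3.48% fell with SW-682. For the difference, 5 targets were higher and 1 lower at an unadjusted p under 0.05, against 3.75% and 3.38% of all genes. AKR1B10 was at 169, 195 and 152 CPM in Vehicle, 128, 163 and 147 in smTEADi, 64.3, 40.1 and 71.3 in Control and 115, 95.6 and 117 in pTEADi: Control lay far below Vehicle (-1.55), and pTEADi moved it toward the Vehicle level. GPX2, a glutathione peroxidase, differed by 1.12 ± 0.32, and FTH1, ferritin heavy chain, differed the other way (-1.48 ± 0.56), with smTEADi 1 at 1110 CPM against 475 and 229 in the other two. Of 14 tested secretory epithelial genes, 7 of 13 rose and 2 fell with pTEADi, and 2 rose and 1 fell with SW-682. The median difference was 0.56, and 0.26 without smTEADi 3 or 0.32 without Vehicle 3. Besides CES1 and SCGB1A1, ALDH1A1, a retinal dehydrogenase, was at 139, 74.3 and 97.3 CPM in Vehicle, 82.98, 99.8 and 164 in smTEADi, 23.8, 18.7 and 39.3 in Control and 83.7, 91.9 and 86.6 in pTEADi and differed by 1.52 ± 0.40; all its pTEADi libraries exceeded Control, and all lay within the range of the SW-682 experiment.

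Of the lipid genes CPT1A alone was called for the difference. Among 25 fatty acid and lipid droplet genes the median difference was -0.011, with 5 higher and 4 lower at an unadjusted p under 0.05. At an unadjusted p under 0.05 and not called, HADHB, a subunit of the trifunctional protein of fatty acid oxidation, differed by 0.36 ± 0.12 (unadjusted p = 0.00856). In the other direction was ANGPTL4, an inhibitor of lipoprotein lipase, which fell with pTEADi (-2.62 ± 0.42) from Control levels of 229, 436 and 83.6 CPM and differed by -2.58 ± 0.78 (unadjusted p = 0.005, not called). Of 24 cholesterol synthesis genes, 8 were lower and 0 higher at an unadjusted p under 0.05, with a median difference of -0.18; of all genes 3.38% were lower. Without Vehicle 1 the median was -0.10 with 5 genes lower, and without smTEADi 2 also 5 were lower. INSIG1, a sterol-sensing brake, was at 20.5, 23.2 and 24.9 CPM in Vehicle, 18.7, 24.5 and 13.00 in smTEADi, 26.9, 34.2 and 27.1 in Control and 11.98, 10.3 and 14.2 in pTEADi and differed by -0.99 ± 0.28; 21 of 24 intervals lay within 2-fold.

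**Figure D5:**
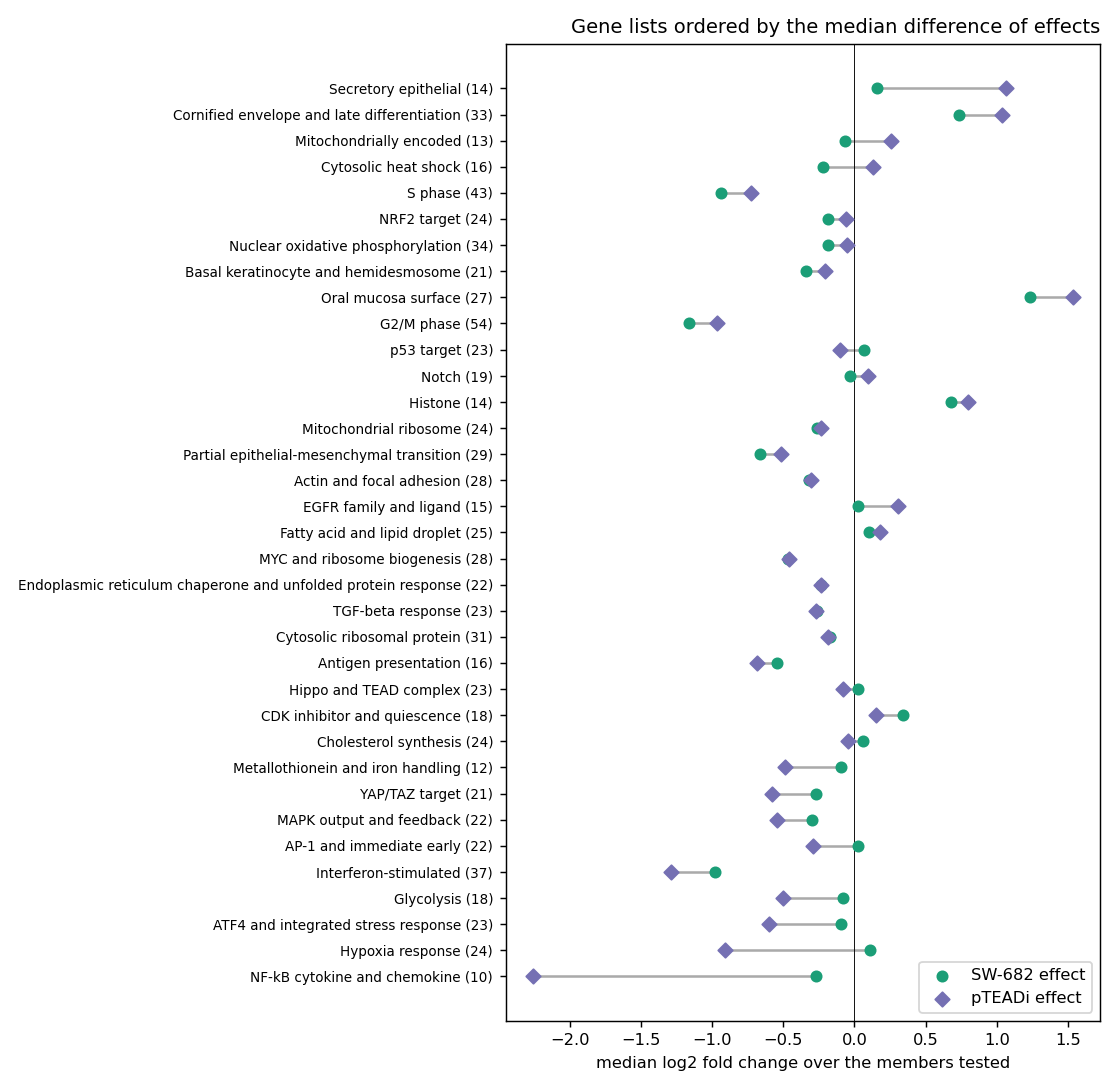
Median log2 fold change of each gene list with SW-682 (circles) and with pTEADi (diamonds), ordered by the median difference, with the number of genes tested for the difference in brackets. The pairs lie far apart for NF-kB (-0.27 and -2.26) and hypoxia genes (0.11 and -0.91) and nearly coincide for ribosome biogenesis (both -0.46).

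Surface genes of oral mucosa rose in part in both comparisons. Of 25 tested in each, 13 rose with SW-682 and 20 with pTEADi, 13 in both and 0 fell, with medians of 1.23 and 1.54 and a median difference of 0.14. The intervals were wide, however, and only 3 of 27 lay within 2-fold. The median was -0.054 without smTEADi 3, -0.0030 without Vehicle 2 and 0.61 without Control 2. Control was below Vehicle by the test in 14 of the 27 genes and above in 0 (median -0.94). KRT4, a keratin of oral suprabasal cells, rose by 1.23 ± 0.22 with SW-682 and 1.98 ± 0.24 with pTEADi. LYNX1, a Ly6 protein, was at 51.00, 70.2 and 51.4 CPM in Vehicle, 95.4, 72.5 and 90.8 in smTEADi, 43.8, 42.9 and 52.8 in Control and 112, 118 and 101 in pTEADi and differed by 0.66 ± 0.20 (unadjusted p = 0.00472), 1 of the 2 list members at an unadjusted p under 0.05. The other, RHCG, an ammonium transporter, had a difference of -2.48 ± 0.90 (unadjusted p = 0.0152), at no more than 1.03 CPM in any library. Neither was called.

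The cornified envelope genes, of the outermost layer, could not be compared as closely. With pTEADi 21 of 31 rose, and with SW-682 1 of 33 rose (0 fell in either). Control was below Vehicle by the test in 13 of 33 genes and above in 0 (median -0.87). The 6 genes with the largest rise for pTEADi and no SW-682 call were LORICRIN, RPTN, FLG and FLG2, all of the outer epidermis, GSDMA, a gasdermin, and ELF5, an epithelial transcription factor. LORICRIN, the main envelope protein, was at 1.10, 53.3 and 6.38 CPM in Vehicle, 32.3, 23.3 and 11.2 in smTEADi, 0.978, 4.38 and 0.768 in Control and 14.4, 12.3 and 19.3 in pTEADi, and Vehicle 2 exceeded every smTEADi library. Its SW-682 effect was 0.14 ± 0.93 and its difference 2.77 ± 1.31, with an interval of -0.033 to 5.58. FLG, filaggrin, was at 22.4, 326 and 57.9 CPM in Vehicle, 384, 188 and 68.6 in smTEADi, 10.2, 16.5 and 5.94 in Control and 33.9, 80.3 and 134 in pTEADi, with Vehicle 2 again high. Over the list the median difference of 0.41 became -0.50 without Vehicle 2, so the direction rests on that library.

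The other leading genes called for pTEADi alone were CP, CA9, IL1B, ANGPTL4, IFI44L and SPOCK1, all of which fell. IFI44L, an interferon-stimulated gene, had an SW-682 effect of -1.56 ± 0.39 (adjusted p = 0.0507) and a pTEADi effect of -3.15 ± 0.32, and SPOCK1, a testican of the matrix, had -1.77 ± 0.47 (adjusted p = 0.057) and -2.42 ± 0.38; both SW-682 effects missed the threshold narrowly. The matrix gene FN1, fibronectin, fell in both (-1.36 ± 0.30 and -3.29 ± 0.38), as did IL7R, the interleukin 7 receptor (-2.698 ± 0.35 and -4.94 ± 0.48), and FGF2, a fibroblast growth factor (-1.999 ± 0.28 and -3.23 ± 0.34). Control was above Vehicle for FN1 (1.83) and IL7R (1.19), and the unadjusted p of their differences was 0.00434 and 0.00669, neither being called.

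Calls for SW-682 alone were few: 85 genes, 41 up and 44 down, 28 of them with an unadjusted p under 0.05 for the difference. TUBB3, a beta tubulin, was at 18.5, 18.8 and 25.2 CPM in Vehicle, 6.04, 12.03 and 7.81 in smTEADi, 46.6, 52.7 and 34.6 in Control and 37.8, 30.2 and 34.2 in pTEADi. It fell with SW-682 (-1.27 ± 0.24), and its pTEADi effect was -0.39 ± 0.14 (adjusted p = 0.0663), a difference of 0.88 ± 0.30. TNC, the matrix protein tenascin C, was at 997, 928 and 969.7 CPM in Vehicle, 378, 589.7 and 619 in smTEADi, 1058, 831 and 1100 in Control and 898, 785 and 856 in pTEADi; all smTEADi libraries were below Vehicle, and pTEADi overlapped Control. Its difference was 0.63 ± 0.22 (unadjusted p = 0.0136). DYRK3, a kinase, IL27RA, a cytokine receptor, and ZDHHC14, a palmitoyl transferase, also fell with SW-682 and had pTEADi effects of -0.26 to -0.47. On the rising side, CPEB3, an RNA-binding protein, was at 6.80, 7.60 and 6.996 CPM in Vehicle, 20.9, 12.2 and 12.6 in smTEADi, 6.01, 7.39 and 7.27 in Control and 6.03, 9.77 and 8.46 in pTEADi and differed by -0.86 ± 0.32, and SETD6, a lysine methyltransferase, by -0.89 ± 0.46. NAMPT, an enzyme of NAD synthesis, FRAS1, ITPR1 and LYPD2 had pTEADi effects of the same sign, 0.44 to 1.70.

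Intervals within 2-fold, which 67.7% of all genes had, were counted in 4 further lists as a description. Cytosolic ribosomal proteins had 31 of 31 intervals within 2-fold and a median difference of -0.023, although Control exceeded Vehicle in 22 of the 31. Basal keratinocyte genes had 19 of 21, actin and focal adhesion genes 26 of 28, and Notch genes 17 of 19. Among partial epithelial-mesenchymal transition genes 12 fell with SW-682 and 19 with pTEADi, 11 in both, and the median difference was 0.0060. TPM2, a tropomyosin, stood apart in the actin list with a difference of -0.81 ± 0.20 (unadjusted p = 0.00134), SPARC, a matrix protein, with -0.54 ± 0.16, MMP10, a stromelysin, with 0.88 ± 0.29, and NRARP, a Notch feedback gene, with 0.56 ± 0.14.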

How the data were processed

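RNA of 12 xenograft tumours was sequenced as poly-T selected mRNA, paired-end. The authors aligned reads to GRCh38 with STAR 2.7.9a and Gencode 38 and estimated counts with RSEM 1.3.1, per the labels and the submitters' processing notes. Expected counts, 1 value per gene and library, are what the authors deposited; 6.76% to 7.27% were not whole, and all were rounded for the tests. Strand setting and treatment of host reads are not given in the sources used here.

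The 2 deposited tables were joined on 60649 gene IDs. In edgeR 4.0.16 (R 4.3.3), genes were kept by filterByExpr (minimum count 10), scaled by TMM and tested by the quasi-likelihood F-test with Benjamini-Hochberg adjustment at 0.05. Each effect was fitted on its own 6 libraries, and the difference on all 12. Fold changes are log2 with SE and 95% intervals, and CPM values are TMM-scaled in the joint fit. DESeq2 1.42.0 and limma 3.58.1 were alternatives, and the code was tested on simulated data. Members, gene lists and naming rules were chosen with earlier results of these data known. Genes were named by rank of the difference, by agreement and by calls in 1 comparison only, and these had a mean of at least 5 CPM. Up to 4 per list were named by p of the difference, and others from a fixed set of TEAD-related genes. List members and the fixed set had no such minimum. A few genes that these rules select are not reported here.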

Additional observations from a re-analysis of the deposited data

Results flagged for a closer look

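CPT1A and CEMIP are given here because their response to the 2 treatments differed by the test of the difference itself. The pTEADi effect minus the SW-682 effect was 1.34 for CPT1A and 1.33 for CEMIP in log2, each with an edgeR adjusted p of 0.0451 over 15460 genes.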

How the results depend on the processing

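The number of genes called for the difference was 2 or 3 under RLE or upper-quartile scaling, a filter of 10 counts in 3 libraries, limma-voom with or without a weight per group, unrounded counts and protein-coding genes only. It was 377 with no low-count filter and 43 with DESeq2 (26 higher, 17 lower), and 0 at an adjusted p of 0.01. The SW-682 count of 816 became 2101 with no filter, 1893 with DESeq2, 2303 from the joint fit and 0 at 0.01, and the shared count of 727 became 1685, 1506, 1545 and 0. The pTEADi count of 3864 became 2138 at 0.01. The cause of these shifts was not tested.

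Leaving out 1 library at a time gave 0 to 20 genes for the difference (903 to 1524 at an unadjusted p under 0.05), 0 to 1622 for SW-682, 2325 to 4379 for pTEADi, 0 to 1331 in both, and 10047 to 10489 intervals within 2-fold. Without smTEADi 1 and Vehicle 2 together, a choice made after seeing the data, the counts were 3 for the difference, 2073 for SW-682 and 1644 in both.

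The labels do not say whether replicate numbers mark paired samples. Deviations of same-numbered libraries from their group means correlated at -0.109 to 0.115. Libraries of unlike number were not compared, so these values cannot settle whether the samples were paired. With the replicate block, edgeR called 0 genes for the difference (917 at an unadjusted p under 0.05), 0 for SW-682 (3570), 3707 for pTEADi and 0 in both; the CPT1A difference was 1.35 (adjusted p = 0.127) and that of CEMIP 1.34 (adjusted p = 0.219).

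Of the 41 list medians, 24 kept their sign in every setting, as did 191 of 217 named genes. With 3 libraries a group, the median SE of the difference was 0.22. RRAD, with a difference of -1.44, was not called (edgeR adjusted p = 0.0815), so differences beyond 2-fold could be missed too. The small number of calls for the difference is therefore no measure of likeness.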
